A study of Mus musculus with 225 samples.

Results

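*Hoxa9*, *Hoxa10*, *Hoxa11*, *Hoxa13* and the antisense transcript *Hoxa11os* form the posterior end of the *HoxA* cluster, and their transcripts were followed here in single cells of the mouse forelimb at embryonic day 12.5. The 5 genes were found by name, each in 1 line of the deposited tables, among 10948 genes with normalized values and 23165 genes with read counts. The cells came from the autopod, from which the digits form, and from the zeugopod, from which the forearm forms. All embryos of both tissues were *Hoxd11::GFP* heterozygous on a mixed C57Bl6CBAF1 background, with a tau-GFP knock-in placed in frame in *Hoxd11*, and dissociated forelimb cells were sorted for high GFP before capture on a Fluidigm C1 chip. GFP marks cells in which *Hoxd11* has been transcribed, so limb cells without that history were left out by the sort and *Hoxd11* itself cannot be read as a finding. No group without this allele or sort was used. After quality filtering by the authors 199 of 225 captured cells remained, 76 of 96 from the autopod and the others from the zeugopod. Of the autopod cells 59 came from run NXT0072 and 17 from NXT0143, and of the zeugopod cells 58 came from NXT0142 and 65 from NXT0143. Forelimbs of several embryos were pooled and no embryo is named for a cell, so each tissue is 1 sample. No p-value can be given between tissues, and shares of cells carry exact binomial (Clopper-Pearson) 95% intervals that cover counting error only.

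Hox genes code for homeodomain transcription factors that are arranged in clusters and are used in the order in which they lie. In the limb, genes of the *HoxA* and *HoxD* clusters set up the segments from shoulder to digits. *Hoxa13* is a gene of the hand and foot, *Hoxa11* is a gene of the forearm and lower leg, and *Hoxa9* and *Hoxa10* have broader proximal domains. *Hoxa11os* is transcribed from the opposite strand across *Hoxa11*, and in the distal limb bud such antisense transcription depends on HOX13 proteins and accompanies the absence of *Hoxa11* transcripts from the hand. In whole tissue this gives separate territories, with *Hoxa13* and the antisense transcript distally and *Hoxa11* proximally. The question asked of the single cells was whether *Hoxa13* and *Hoxa11*, and *Hoxa11* and *Hoxa11os*, are found in different cells.

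In the GENCODE annotation of GRCm38, all 5 genes lie on chromosome 6. *Hoxa13* (52257694 to 52260880), *Hoxa11* (52242106 to 52245810), *Hoxa10* (52231197 to 52240854) and *Hoxa9* (52223100 to 52231089) are on the minus strand and code for proteins. *Hoxa11os* (52244393 to 52249799) is on the plus strand and is annotated as a processed transcript. *Hoxa11* and *Hoxa11os* share 800 exonic bases, from 52245011 to 52245810, which are the whole first exon of *Hoxa11*. The chemistry of the libraries did not mark the strand, so a read inside these bases could come from either gene. The lengths by which the authors divided their counts were 1489 bases for *Hoxa11* and 1609 bases for *Hoxa11os*. The annotation gives 1487 and 1609 exonic bases that no other gene shares, against 2287 and 3073 exonic bases in all. Across 708 genes whose exons are less than 80% free of other genes, the length in the table was within 2% of the free length in 433 and within 2% of the full length in 31. The lengths used for both genes thus leave out their shared stretch, and the values of *Hoxa11* refer to its second exon.

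**Figure D1:**
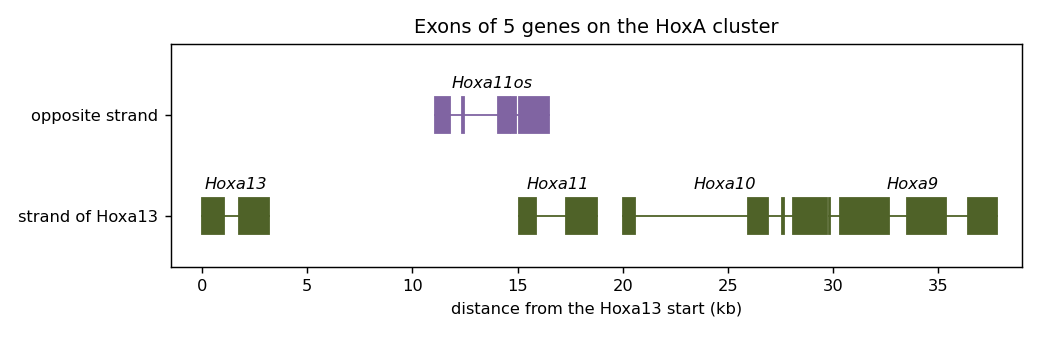
Exons of the 5 genes in the GENCODE annotation of GRCm38, drawn as boxes against the distance in kb from the *Hoxa13* start, with the strand of *Hoxa13* below and the opposite strand above. The first exon of *Hoxa11* sits inside the exon at the right end of *Hoxa11os*, its second exon lies beyond that transcript, and no exon of *Hoxa9*, *Hoxa10* or *Hoxa13* is covered by an exon of *Hoxa11os*.

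The stretches before the starts of *Hoxa11* and *Hoxa11os* are shown because the pair is transcribed through each other's start. They are the 250 bases upstream of the start in RefSeq, 5′ to 3′ on the strand of each gene, in build GRCm38.p6. The capitals mark matches, on either strand, to TTTAT or TTTAC, short cores bound by posterior HOX proteins. The *Hoxa11* stretch is chr6:52245811-52246060 on the minus strand, and 98 of its 250 bases belong to exons of *Hoxa11os*. The *Hoxa11os* stretch is chr6:52244993-52245242 on the plus strand, and 232 of its 250 bases are coding sequence of *Hoxa11* on the other strand. RefSeq thus starts *Hoxa11os* farther downstream than the GENCODE annotation does, inside its first GENCODE exon.
*Hoxa11*: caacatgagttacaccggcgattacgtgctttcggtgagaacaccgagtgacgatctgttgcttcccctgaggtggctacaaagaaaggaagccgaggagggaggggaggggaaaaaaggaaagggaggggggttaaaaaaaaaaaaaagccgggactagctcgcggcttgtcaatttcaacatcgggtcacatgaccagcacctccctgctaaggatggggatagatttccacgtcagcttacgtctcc
*Hoxa11os*: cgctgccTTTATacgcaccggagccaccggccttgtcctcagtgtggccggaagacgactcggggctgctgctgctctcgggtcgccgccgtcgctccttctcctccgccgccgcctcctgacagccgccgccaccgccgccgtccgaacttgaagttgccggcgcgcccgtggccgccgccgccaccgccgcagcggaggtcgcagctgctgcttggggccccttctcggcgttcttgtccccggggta
The *Hoxa11os* stretch held 1 match to TTTAT and none to TTTAC, and the *Hoxa11* stretch held neither. TTTAT was found in 37.3% and TTTAC in 28.3% of the corresponding stretches of 32851 RefSeq starts, so a match of this kind is common. Such a match describes the letters and not binding.

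The tissue labels were set beside marker genes. A gene is called on here at a normalized value of at least 5, where the value is the read count divided by a spike-in size factor, plus 1, per kb of gene length. Values of different genes can therefore be compared per length. *Hoxd13* was on in 63 of 76 autopod cells and 1 zeugopod cell, and *Shox2*, a gene of the proximal limb, in 0 of 76 autopod cells and 65 zeugopod cells. All 6 autopod markers were higher in the autopod and both measured zeugopod markers in the zeugopod by at least 2 in mean log2(value + 1). The paper lists these 6 autopod markers among the genes most enriched in the autopod in the same cells, so they are no independent check of the labels. Of the other listed genes that passed the filter on low counts, 2 of 4 for limb mesenchyme, 2 of 3 for cartilage, 1 of 1 for interdigit, 2 of 5 *Hox* paralogues and none of 2 for tendon, 3 for the cell cycle, 2 cofactors and 1 gene responsive to HOX13 were higher in the autopod by 2, and 1 for limb mesenchyme was higher in the zeugopod. At 5 or more reads, no cell of either tissue had the required 3 of the listed markers for muscle, epithelium, endothelium or blood, although 1 of the 4 blood markers alone is in the table, or 2 for macrophages. Cells with at least 3 of 5 cartilage markers numbered 35 in the autopod and 38 in the zeugopod, and 17 zeugopod cells had at least 2 of 3 tendon markers. Autopod cells had 187344 to 9437447 reads on genes and zeugopod cells 186271 to 6801278. No 2 cells had identical counts.

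*Hoxa13*, the most posterior gene, was found almost only in the autopod. It was on in 39 of 76 autopod cells, which is 51.3% (39.6 to 62.96), and in 1 zeugopod cell, which is 0.813% (0.0206 to 4.45). In the autopod it was on in 33 of 59 cells of NXT0072 (55.9%, 42.4 to 68.8) and 6 of 17 cells of NXT0143 (35.3%, 14.2 to 61.7), and in the zeugopod in 1 of 58 cells of NXT0142 and 0 of 65 of NXT0143, which allows a share of up to 4.62%. Among autopod cells with the gene on, its value was 5.66 at the lowest, 46.5 at the median and 1510 at the highest. The distribution was broad, with 15 autopod cells at 100 or more. The cells nearest to the threshold had 5.66 inside it and 4.85 outside it.

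The zeugopod cell with *Hoxa13* on was not a weak case. It held 1039 of the 1068 *Hoxa13* reads of that tissue and a value of 385. The other 13 zeugopod cells with any *Hoxa13* read had 1 to 8 reads each. In the same cell *Hoxa11os* stood at 2917, *Hoxa9* at 71.7 and *Hoxa10* at 23.5, *Hoxa11* had no read, and *Hoxd13* and *Hoxd12*, the other genes of the digit territory, had no read either. It had 3853 genes with a read, within the range of 1801 to 5917 of zeugopod cells. Its cartilage regulator *Sox9* stood at 1085.

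*Hoxa11* showed the opposite tissue order and was the least often found of the proximal genes. It was on in 32 zeugopod cells, which is 26.02% (18.5 to 34.7), and in 4 of 76 autopod cells, which is 5.26% (1.45 to 12.9). Both zeugopod runs contributed, with 19 of 58 cells in NXT0142 (32.8%, 21.01 to 46.3) and 13 of 65 in NXT0143 (20%, 11.1 to 31.8), and the intervals of the runs overlap. Among zeugopod cells with *Hoxa11* on, the value was 5.37 at the lowest, 59.8 at the median and 2365 at the highest. A few cells carried most of the signal, since the highest cell alone made up 20.6% of the zeugopod sum and 12 cells reached 100.

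The 4 autopod cells with *Hoxa11* on were all from NXT0072, where they made up 6.78% of the 59 cells (1.88 to 16.5). Their values were 5.37, 16.1, 43.7 and 98.1, from 14, 13, 162 and 606 reads. None reached 100. In NXT0143 no autopod cell had it on, which in 17 cells allows a share of up to 17.6%. *Hoxa11* was thus found in a small share of autopod cells, and a share of the same size was not detectable in the 17 cells of NXT0143. Below the threshold, 3 more autopod cells had 2, 2 and 12 *Hoxa11* reads.

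*Hoxa11os* was found about as often in both tissues. It was on in 45 of 76 autopod cells, which is 59.2% (47.3 to 70.4), and in 68 zeugopod cells, which is 55.3% (46.1 to 64.3), and the intervals overlap. The runs within a tissue differed much more than the tissues. In the zeugopod it was on in 46 of 58 cells of NXT0142 (79.3%, 66.6 to 88.8) and 22 of 65 cells of NXT0143 (33.8%, 22.6 to 46.6), with intervals that do not overlap. In the autopod it was on in 32 of 59 cells of NXT0072 (54.2%, 40.8 to 67.3) and 13 of 17 of NXT0143 (76.5%, 50.1 to 93.2). Thinning every cell to 500000 reads, at which 1 read was counted as on, left the zeugopod runs at 80.4% and 36.5%, and the autopod runs at 57.1% and 81.2%. Zeugopod cells of NXT0142 had a median of 4283.5 genes with a read and those of NXT0143 3745, and the part of this difference in the shares was not tested.

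Where it was on, *Hoxa11os* had the highest median of the 5 transcripts per length in either tissue. Its value was 6.22 at the lowest, 739 at the median and 10653 at the highest in autopod cells, and 6.84, 403 and 3316 in zeugopod cells. The 13 autopod cells of NXT0143 that had it on lay between 255 and 5243, and the other 4 cells of that run were at 0.622, the value of 0 normalized reads, so no cell of this run lay near the threshold. It was the highest of the 5 genes in 33 of the 68 autopod cells with any of them on and in 36 of the zeugopod cells with any of them on (33.3%).

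*Hoxa10* was the most widespread of the genes in the forearm. It was on in 96 zeugopod cells, which is 78.05% (69.7 to 85.01), and in 47 of 76 autopod cells, which is 61.8% (49.98 to 72.8). By run the zeugopod shares were 54 of 58 in NXT0142 (93.1%, 83.3 to 98.1) and 42 of 65 in NXT0143 (64.6%, 51.8 to 76.1), and the autopod shares 40 of 59 in NXT0072 (67.8%, 54.4 to 79.4) and 7 of 17 in NXT0143 (41.2%, 18.4 to 67.1). Zeugopod cells with it on had values from 6.72 to 1737 with a median of 259, and autopod cells from 5.19 to 4066 with a median of 81.8. It was the highest of the 5 genes in 59 of the zeugopod cells with any of them on (54.6%), against 14 of 68 in the autopod (20.6%). Thinned to 500000 reads, the zeugopod runs stood at 94.6% and 76.2%.

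*Hoxa9* had close shares in the tissues, with overlapping intervals. It was on in 23 of 76 autopod cells, which is 30.3% (20.2 to 41.9), and in 40 zeugopod cells, which is 32.5% (24.4 to 41.6). The autopod cells were unevenly divided, with 22 of 59 in NXT0072 (37.3%) and 1 of 17 in NXT0143 (5.88%, 0.149 to 28.7), while the zeugopod runs gave 22 of 58 (37.9%) and 18 of 65 (27.7%). Its values when on were 5.45 at the lowest, 37.4 at the median and 1045 at the highest in the autopod, and 5.06, 51.9 and 1120 in the zeugopod. With the longest exons of the 5, *Hoxa9* needed about 24.7 normalized reads to be called on, against 6.45 for *Hoxa11*, so this threshold is strictest for *Hoxa9*. At 5 reads it was found in 33 autopod and 48 zeugopod cells.

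The order of the shares in the autopod was *Hoxa10*, *Hoxa11os*, *Hoxa13*, *Hoxa9* and *Hoxa11*. The first 3 have overlapping intervals, as do *Hoxa13* and *Hoxa9*, and *Hoxa11* lies below all of them with an interval that ends at 12.9%. In the zeugopod the order was *Hoxa10*, *Hoxa11os*, *Hoxa9*, *Hoxa11* and *Hoxa13*. There *Hoxa10* and *Hoxa11os* have intervals that do not overlap, *Hoxa9* and *Hoxa11* overlap, and *Hoxa13* lies below all. These intervals compare genes in the same cells and serve as a description.

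**Figure D2:**
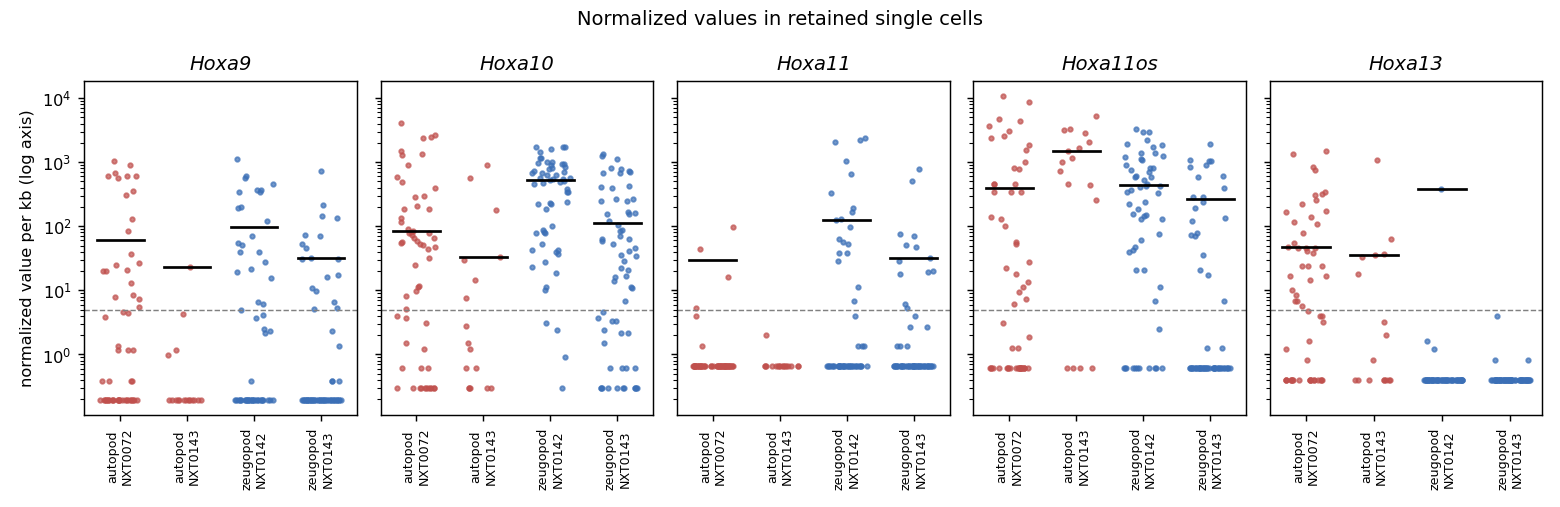
Normalized value per kb, on a log axis, of each gene in each retained cell, by tissue and run. The dashed line is the threshold of 5, the black bars are medians of cells with the gene on, and the row of points at the bottom of each panel are cells with 0 normalized reads. Most cells lie either there or well above the threshold, and *Hoxa13* stands above it in a single zeugopod cell.

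**Figure D3:**
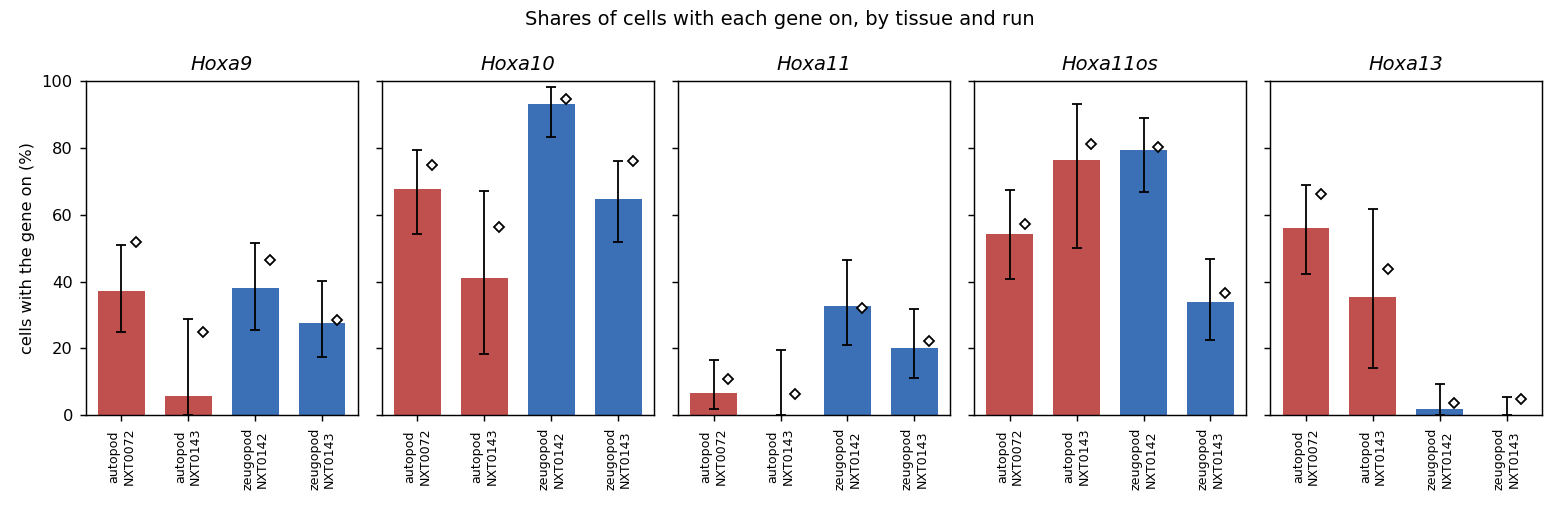
Percentage of cells with each gene on, by tissue and run, with Clopper-Pearson 95% intervals. White diamonds are the shares after thinning each cell to 500000 reads and counting 1 read as on, and they keep the contrast between the zeugopod runs for *Hoxa11os*, at 80.4% and 36.5%.

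Differences between the tissues were measured as autopod minus zeugopod in mean log2(value + 1) over cells. All 5 genes passed the filter on low counts, 5 reads in 25% or more of a tissue's cells, together with 4898 genes in all. The means of *Hoxa13* were 3.55 for autopod and 0.59 for zeugopod cells, 2.96 apart, and it was higher in the autopod by 2.07 within NXT0143 and by 3.16 between NXT0072 and NXT0142. Over all cells 0.796% of genes were higher in the autopod by at least 2 and 2.69% higher in the zeugopod, so *Hoxa13*, the only member past that limit, was among a small share of genes. The shares were 3.59% and 1.04% within NXT0143, and 0.96% and 6.94% between NXT0072 and NXT0142. The median difference of all these genes was -0.12 over all cells, 0.18 within NXT0143 and -0.34 between NXT0072 and NXT0142.

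*Hoxa10* and *Hoxa11* were lower in the autopod in every comparison of runs. For *Hoxa10* the difference was -1.58 over all cells, -1.77 within NXT0143 and -2.69 between the other 2 runs. For *Hoxa11* it was -1.31, -0.97 and -1.85. *Hoxa9* had a difference of 0.05 over all cells, -0.95 within NXT0143 and -0.13 between the other runs. *Hoxa11os* turned its sign. Its difference was 0.69 over all cells and 5.01 within NXT0143, the largest in size of all 4898 genes there, whereas between NXT0072 and NXT0142 it was -2.04. Which tissue had more of the antisense transcript thus depended on which runs were compared. Within NXT0143 *Hoxa11os* and *Hoxa13* passed a difference of 2, and between NXT0072 and NXT0142 *Hoxa13* did in the autopod and *Hoxa10* and *Hoxa11os* in the zeugopod. Run and pool of embryos cannot be told apart in these labels.

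*Hoxa13* and *Hoxa11* were rarely on in the same cell, and about as rarely as the low number of autopod cells with *Hoxa11* gives. In the autopod 2 cells had both on, 37 had *Hoxa13* alone, 2 had *Hoxa11* alone and 35 had neither. Both genes were on in 4.88% (0.596 to 16.5) of the 41 cells with either. The product of the 2 shares within each run gives 2.24 cells with both, next to the 2 that were found. Exclusion within single autopod cells was thus not detectable beyond the scarcity of *Hoxa11*, and 4 cells are too few to show it. In the zeugopod no cell had both on, with 1 cell for *Hoxa13* alone and 32 for *Hoxa11* alone, where the product gives 0.328.

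The 4 autopod cells with *Hoxa11* differed from each other in their other *HoxA* transcripts. In the cell with *Hoxa11* at 98.1, *Hoxa13* was at 23.8, and *Hoxa11os* and *Hoxa10* were off at 1.24 and 3.66. In the cell at 16.1, *Hoxa13* stood at 346, *Hoxa11os* at 100.7 and *Hoxa10* at 25.04. The cell at 43.7 had *Hoxa11os* at 11.2 and *Hoxa10* at 32.4, *Hoxa13* off at 3.23, and no read of *Hoxd13*. In the cell at 5.37 no other member was on, while *Hoxd13* stood at 5018. *Hoxd13* was also high, at 1433 and 1295, in the first 2 of these cells, so 3 of the 4 carried this marker of the hand.

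*Hoxa11* and *Hoxa11os* were not separated from each other in the zeugopod. There 24 cells had both on, 8 had *Hoxa11* alone, 44 had *Hoxa11os* alone and 47 had neither. The antisense transcript was on in 75% of the cells with *Hoxa11* and in 48.4% of those without it. The product of shares within runs gives 19.5 cells with both, below the 24 found. In NXT0142 there were 17 cells with both, where the product gives 15.1, and in NXT0143 there were 7, where it gives 4.40. After thinning to 500000 reads 24 cells had both where the product gives 19.6. Neither run thus showed fewer cells with both transcripts than the shares alone give.

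In the autopod the same pair was on together in 2 cells, where the product gives 2.17, with 2 cells for *Hoxa11* alone, 43 for *Hoxa11os* alone and 29 for neither. The autopod values of *Hoxa11os* beside *Hoxa11* were 11.2 and 100.7, both in NXT0072. The 30 cells of that run with *Hoxa11os* alone had a median of 452. Over all cells of that run with *Hoxa11os* on the lower quartile was 46.5, and 2 cells are too few to compare levels. In the zeugopod the median of *Hoxa11os* was 415 in the 24 cells with both on and 346 in the 44 with *Hoxa11os* alone. Within the runs the order was the other way, with 426 and 456 in NXT0142 and 133 and 287 in NXT0143. The median of *Hoxa11* was 72.2 with the antisense on and 39.6 in the 8 cells without it, and here too the runs went apart. In NXT0142 it was 97.4 in 17 cells with the antisense against 1042 and 2251 in the 2 cells without, and in NXT0143 it was 69.2 in 7 cells against 25.2 in 6. No direction between the levels of the 2 transcripts thus held in both runs and in both readings.

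Within single zeugopod cells that had both on, the antisense was usually the stronger per length. It exceeded *Hoxa11* in 19 of 24 cells, and the ratio of *Hoxa11os* to *Hoxa11* was 0.0899 at the lowest, 3.85 at the median and 52.3 at the highest. In 7 of these cells the ratio was over 10 and in 1 it was under 0.1. The highest *Hoxa11* values fell on either side, with 2251 in a cell that had *Hoxa11os* off and 2365 in a cell with both.

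*Hoxa13* and *Hoxa11os*, which share the distal territory, were on together in 24 autopod cells, with 15 cells for *Hoxa13* alone, 21 for *Hoxa11os* alone and 16 for neither. The product of shares within runs gives 22.5. Of the 39 autopod cells with *Hoxa13* 61.5% had *Hoxa11os*, and of the 37 without it 56.8%. The presence of the 2 transcripts was thus close to what their shares give, while the median of *Hoxa11os* differed. Where *Hoxa11os* was on, its median value was 1417 in the 24 cells with *Hoxa13* and 451 in the 21 cells without. Within NXT0072 these medians were 799 and 129.3, and within NXT0143 they were 2054 in 5 cells and 1346 in 8 cells. The rank correlation of *Hoxa13* with *Hoxa11os* over all 76 autopod cells was 0.164. It was 0.046 given the number of genes detected and -0.004 on CPM, which scales counts by each cell's total. Given the genes detected it was 0.081 within NXT0072 and 0.218 within NXT0143. The number of genes detected itself had rank correlations of 0.495 with *Hoxa11os* and 0.252 with *Hoxa13*. Its part in the medians was not tested. In the zeugopod *Hoxa11os* was on in 67 cells that lacked *Hoxa13*.

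**Figure D4:**
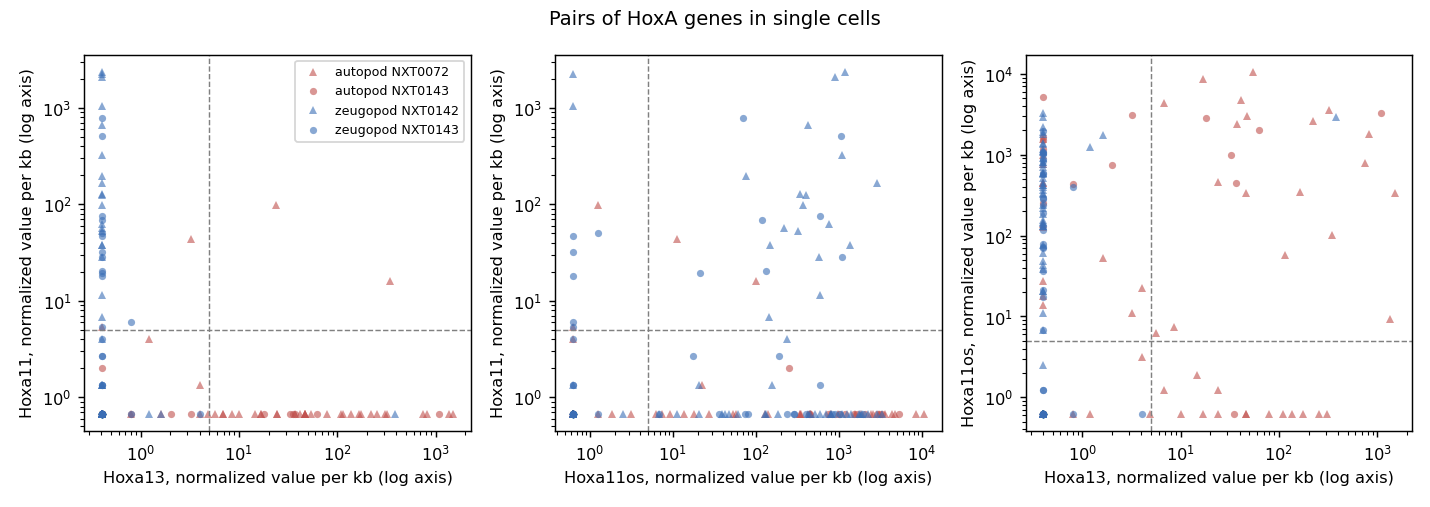
Normalized values per kb of 3 pairs of genes in single cells, both axes on a log scale, with triangles for NXT0072 and NXT0142, circles for NXT0143, red for autopod and blue for zeugopod. Dashed lines are the threshold of 5. The upper right of the left panel, with *Hoxa13* and *Hoxa11* both on, holds 2 autopod cells, while the upper right of the middle panel, with *Hoxa11* and *Hoxa11os* both on, holds 24 zeugopod cells and 2 autopod cells.

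Neighbouring coding genes of the cluster were on together in numbers close to the product of their shares. *Hoxa9* and *Hoxa10* were both on in 19 autopod cells, where the product gives 15.3, and in 34 zeugopod cells, where it gives 32.1. The zeugopod excess turned at 1 read, with 48 cells against 49.8, at 5 reads, with 41 against 42.4, and after thinning, with 38 against 38.3. *Hoxa10* accompanied *Hoxa9* in 82.6% of autopod and 85% of zeugopod cells with *Hoxa9*. *Hoxa10* and *Hoxa11* were both on in 30 zeugopod cells, where the product gives 26.1, so 93.8% of the cells with *Hoxa11* also had *Hoxa10*, and in 2 autopod cells, where it gives 2.71. *Hoxa13* and *Hoxa10*, which are not neighbours, were both on in 28 autopod cells, where the product gives 24.8, with 11 and 19 cells for each alone.

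Rank correlations across cells were weak and are given as a description, since cells of a pool are not independent samples. In the autopod the highest were 0.359 between *Hoxa10* and *Hoxa13*, 0.345 between *Hoxa9* and *Hoxa10*, and 0.316 between *Hoxa10* and *Hoxa11os*, over 76 cells. Within NXT0072 and NXT0143 these were 0.367 and 0.340, 0.327 and 0.143, and 0.445 and 0.081, and given the number of genes detected the pooled values were 0.298, 0.367 and 0.173. In the zeugopod the highest was 0.398 between *Hoxa10* and *Hoxa11os* over the cells of both runs, which was 0.046 within NXT0142 and 0.329 within NXT0143. *Hoxa11* and *Hoxa11os* had 0.239 over all zeugopod cells, 0.102 within NXT0142 and 0.290 within NXT0143. The correlation of *Hoxa13* with *Hoxa11* in the autopod was -0.046. The lowest of all pairs over a whole tissue was -0.154, between *Hoxa9* and *Hoxa11* in the autopod, so no pair had a strong negative correlation.

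No cell had all 5 genes on, and the 2 tissues used the possible combinations differently. In the autopod 17 combinations were found. The most frequent was *Hoxa10* with *Hoxa11os* and *Hoxa13*, in 12 of 76 cells (15.8%, 8.43 to 25.96), and *Hoxa9* joined these 3 in 7 cells more. None of the 5 was on in 8 cells, *Hoxa10* with *Hoxa11os* in 6 cells, and *Hoxa13* alone in 6 cells. *Hoxa10* alone, *Hoxa11os* alone, *Hoxa9* with *Hoxa10* and *Hoxa11os*, and *Hoxa9* with *Hoxa10* and *Hoxa13* came in 5 cells each. No combination thus held more than a small minority of the autopod cells.

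In the zeugopod 15 combinations were found. *Hoxa10* alone was the most frequent, in 25 cells (20.3%, 13.6 to 28.5), followed by *Hoxa10* with *Hoxa11os* and by *Hoxa9* with *Hoxa10* and *Hoxa11os*, in 18 cells each. *Hoxa10*, *Hoxa11* and *Hoxa11os* were on together in 14 cells and with *Hoxa9* in 8 more. *Hoxa11* was on without any other member in no zeugopod cell, and 30 of its 32 cells had *Hoxa10*. The runs differed here as well. None of the 5 was on in 14 of 65 cells of NXT0143 and 1 of 58 of NXT0142, and *Hoxa10* alone made up 17 cells of NXT0143 and 8 of NXT0142.

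**Figure D5:**
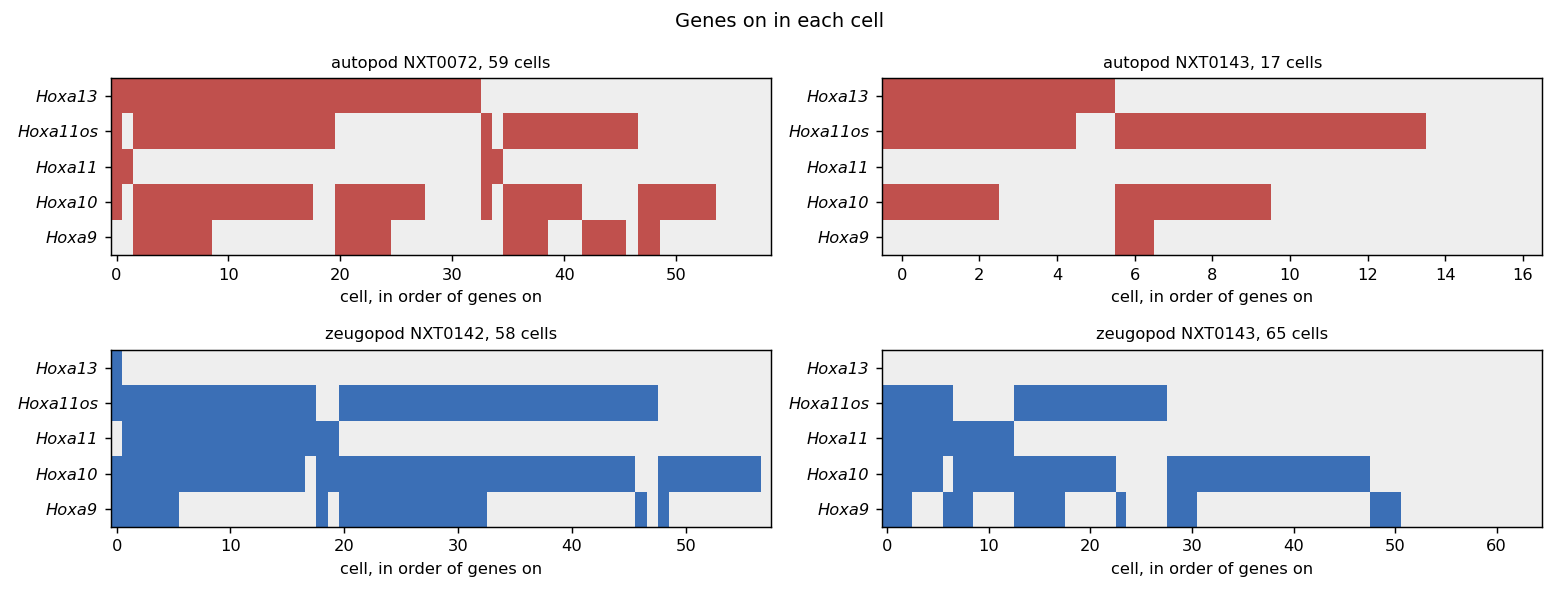
Cells as columns and the 5 genes as rows, coloured where the gene is on, for each tissue and run, with the cells ordered by *Hoxa13*, *Hoxa11*, *Hoxa11os*, *Hoxa10* and *Hoxa9*. The autopod panels show *Hoxa13* in 33 and 6 cells and the zeugopod panels in 1 and 0 cells, and *Hoxa10* and *Hoxa11os* run through both tissues.

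Depth moved with some of these classes and its part in them was not tested. Autopod cells with *Hoxa11os* on had a median of 4152 genes with a read against 3105 in cells with it off, and for *Hoxa10* the medians were 3890 and 3133 and for *Hoxa13* 3965 and 3414. Autopod cells with no member on had a median of 2562.5 genes and those with 4 on 5173.5. In the zeugopod the same medians were 4109 and 3919 for *Hoxa11os*, 4038 and 3642 for *Hoxa10* and 4109 and 3943 for *Hoxa11*, a smaller gap. Cells with no member on had 3735 genes there and those with 4 on 4000. Of all on calls in the 2 tissues, 1 rested on fewer than 5 reads, in a zeugopod cell with *Hoxa11*.

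The other genes of the *HoxA* cluster were found in a minority of cells. Among the anterior genes of the cluster *Hoxa5* was on in 10 autopod and 10 zeugopod cells and *Hoxa7* in 6 and 9, and *Hoxa2*, *Hoxa3*, *Hoxa4* and *Hoxa6* were on in 1 autopod cell each and in 2 to 4 zeugopod cells. The regulatory RNA *Hottip*, which is transcribed beyond *Hoxa13*, had reads in 5 autopod cells, 212 in all, and in no zeugopod cell. *Evx1*, the homeobox gene next in line, was on in 6 cells of each tissue. Of the 19 genes listed for the cluster and its surroundings 14 were measured in the normalized table, 2 passed the filter on low counts, and neither *Tax1bp1* nor *Hibadh* differed between the tissues by 2. *Hoxa5* and *Hoxa7* were thus on in more autopod cells than *Hoxa11*, which had 4, and in more zeugopod cells than *Hoxa13*, which had 1.

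The paralogues of these genes in the *HoxD* cluster were compared cell by cell. *Hoxa13* and *Hoxd13* were both on in 35 autopod cells, with 4 for *Hoxa13* alone, 28 for *Hoxd13* alone and 9 for neither, where the product gives 33.2. Nearly all *Hoxa13* cells thus carried *Hoxd13*, as 63 of 76 autopod cells did. *Hoxa11* and *Hoxd11*, the gene used for the sort, were both on in 29 of the 32 zeugopod cells with *Hoxa11*, where the product gives 24.8. *Hoxa10* and *Hoxd10* were both on in 60 zeugopod cells, where it gives 58.8, and *Hoxa9* and *Hoxd9* in 10, where it gives 12.05. Of the listed paralogues in other clusters, *Hoxb9* was on in 0 autopod and 3 zeugopod cells, and *Hoxc9* to *Hoxc13* have no line in the normalized table.

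Autopod cells with and without *Hoxa10* were compared over the listed genes, and those given first lay far from the median of all genes and were chosen after their values were seen. *Lhx9*, a LIM homeobox gene of undifferentiated distal mesenchyme, was on in 33 of 47 cells with *Hoxa10* and 8 of 29 without, a difference of 3.82 in mean log2(value + 1), and 0.0992% of 4032 genes tested in this tissue were as far or farther in that direction. *Prrx1*, a mesenchymal homeobox gene, was on in 32 and 7 cells with a difference of 3.45, and the mitotic kinase gene *Cdk1* in 21 and 3 cells with 3.38. The cartilage collagen gene *Col2a1* was on in 20 and 16 cells with a difference of -2.10, and *Sox9*, the regulator of cartilage formation, in 43 of 47 and 29 of 29 cells with -1.33. The median difference of all genes was 0.80. By list, 3 of 4 limb mesenchyme genes and 4 of 4 cell cycle genes lay above this median, and 4 of 4 measured cartilage genes lay below it. The mesenchyme gene below it was *Tbx5*, at 0.18 over all, 1.99 in NXT0072 and -3.18 in NXT0143.

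The signs for *Lhx9*, *Prrx1*, *Cdk1*, *Col2a1* and *Sox9* were the same in both autopod runs, with *Sox9* close to 0 in NXT0143. In NXT0072 the differences were 3.91 for *Lhx9*, 3.13 for *Prrx1*, 3.30 for *Cdk1*, -1.40 for *Col2a1* and -1.77 for *Sox9*, and in NXT0143, with 7 cells on and 10 off, they were 2.69, 3.20, 2.57, -2.26 and -0.31. The number of genes with a read was also higher in cells with *Hoxa10*, as given above, and cells with at least 3 cartilage markers had *Hoxa10* on in 19 of 35 cases.

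For *Hoxa13* in the autopod, the homeobox genes *Msx1* and *Msx2* are given, chosen from the listed genes after their values were seen. *Msx1* was on in 28 of 39 cells with *Hoxa13* and 16 of 37 without, a difference of 3.02 against a median of 0.61 for all genes. *Msx2* was on in 22 and 10 of these cells, with 2.76. Within NXT0072 and NXT0143 the differences were 2.68 and 3.53 for *Msx1* and 2.29 and 4.49 for *Msx2*, against medians of 0.67 and 0.53. The other autopod and interdigit markers did not all follow. *Lhx9* (1.83 and 2.14), *Lhx2* (2.10 and 2.97) and *Bmp7* (1.30 and 1.11) lay above both medians. *Hoxd13* stood at 0.68 and 0.87, *Hoxd12* at 0.33 and 2.74, *Prdm16* at 0.91 and 0.19, and *Aldh1a2* at -0.22 and 2.11.

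Zeugopod cells with *Hoxa11os* had fewer transcripts of the zeugopod markers. *Shox2* was on in 27 of 68 cells with *Hoxa11os* and in 38 of 55 without, with a difference of -1.93 over all cells, -1.89 within NXT0142 and -2.05 within NXT0143. *Meox2* was on in 25 and 29 of these cells, with -1.34 over all, -0.99 and -1.51 within the runs. *Epha7*, an ephrin receptor gene that responds to HOX13 proteins in the autopod, was on in 23 and 35 cells, with -2.13 over all, -1.38 and -2.22 within the runs. The median difference of all 4304 genes tested was 0.19, and 0.209% of genes for *Shox2* and 0.163% for *Epha7* were as far or farther in the same direction.

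Other listed genes, chosen after their values were seen, were higher in these cells. *Prrx1* was on in 50 of 68 cells with *Hoxa11os* and 25 of 55 without, with a difference of 2.03 over all, 0.78 within NXT0142 and 2.16 within NXT0143. *Lhx9*, counted among the autopod markers, was on in 20 and 2 cells, with 1.61 over all, 1.03 and 1.16 within the runs. *Hoxd9* was on in 27 and 8 cells with 1.49, 1.33 and 0.88. *Hoxa11* cells shared part of this pattern, with *Epha7* on in 10 of 32 cells with *Hoxa11* and 48 of 91 without and a difference of -1.57, while *Shox2* was on in 15 of 32 and 50 of 91.

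For *Hoxa9* in the zeugopod the listed genes given here were also chosen after their values were seen, and their rank among all genes is not given. *Hoxd10* was on in 27 of 40 cells with *Hoxa9* and 45 of 83 without, a difference of 1.79 over all, 1.47 in NXT0142 and 1.52 in NXT0143, where the median of all genes was 0.17. *Tbx5*, the forelimb T-box gene, was on in 33 and 58 cells with 1.44 over all, 1.60 and 0.91 within the runs. *Col2a1* was on in 21 and 65 cells with -1.25 over all, -1.15 and -1.42 within the runs.

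Autopod cells were split by *Hoxa11os* in the same way. *Hoxd12* was on in 19 of 45 cells with the antisense and 8 of 31 without, with a difference of 2.34, and *Hoxd13* in 38 and 25 with 0.20, where the median of all genes was 0.89. *Twist1* was lower, on in 21 and 19 cells with -1.17, but the runs went apart with -1.49 in NXT0072 and 2.24 in NXT0143, the latter with 4 cells off. Of the cofactor genes, *Pbx2* was on in 25 autopod and 18 zeugopod cells.

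Genes whose pattern over cells was most like each member were named by rank correlation among genes that passed this filter in the tissue and had the same sign in both runs. The closest were *Ifitm3* (0.509), *Dach1* (0.509) and *Ube4a* (0.473) for *Hoxa13* in the autopod, and *Trim28* (0.408), *Tsen34* (0.369) and *Jam3* (0.328) for *Hoxa11* in the zeugopod. With *Hoxa13*, *Ube4a* stood at 0.537 in NXT0072 and 0.090 in NXT0143. *Hoxa11os* was closest to *Upf1* (0.616), *Kdm5a* (0.600) and *Hmgb3* (0.597) in the autopod, where the median of all genes was 0.203 and given the number of genes detected these 3 stood at 0.454, 0.470 and 0.442. In the zeugopod it was closest to *Hoxa10* (0.398), *Zbtb21* (0.387) and *Alkbh5* (0.385). Within NXT0142 and NXT0143 these were 0.046 and 0.329, 0.328 and 0.245, and 0.158 and 0.101, so the values over both runs were higher than those within a run. *Hoxa9* was closest to *Zfp560* (0.427), *2410006H16Rik* (0.406) and *Atpif1* (0.354) in the autopod and to *N4bp2* (0.313) and *Arhgap35* (0.303) in the zeugopod. For *Hoxa10* in the autopod they were *Ube4a* (0.603), *Tle4* (0.536) and *Lnp* (0.518).

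In the zeugopod 2 genes followed *Hoxa10* closely. The caudal homeobox genes *Cdx4* and *Cdx2* had rank correlations of 0.889 and 0.822 with it, far above the next gene, *Hnrnpl*, at 0.508. *Cdx4* stayed at 0.888 within NXT0142 and 0.823 within NXT0143. In the autopod *Cdx4* and *Cdx2* had 0.654 and 0.581 with *Hoxa10*, with *Cdx4* at 0.644 within NXT0072 and 0.727 within NXT0143. These 2 genes had reads in 19 and 15 of the 76 autopod cells and were not among the genes ranked there. Reads of *Cdx4* were few, 1763 over all cells against 175673 of *Hoxa10*, or 1.004%, and reads of *Cdx2* were 460, or 0.262%. *Cdx4* had reads in 82 cells and *Cdx2* in 70, and none of these cells lacked *Hoxa10* reads. Among the 57 cells with at least 1000 *Hoxa10* reads 54 had a *Cdx4* read, and the *Cdx4* reads were 1.07% of the *Hoxa10* reads at the median and 2.23% at the highest. The 2 *Cdx* genes thus appeared in a narrow proportion to *Hoxa10* and in no cell without it. Whether these reads came from *Cdx* transcripts or from *Hoxa10* transcripts placed on related homeobox sequence was not tested, and the levels of both *Cdx* genes are uncertain.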

How the data were processed

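Single-cell RNA-seq libraries (SMARTer v2 and Nextera XT, without strand marking, 75 bp reads) were made on Fluidigm C1 chips. Bowtie2 and the build GRCm38 (mm10) are named in the submitters' processing notes, with no version. The deposited count table holds whole-number read counts per gene that the authors made from 225 cells. The deposited normalized table holds a signal for 199 retained cells, which the authors made as counts per spike-in size factor plus 1 per kb of gene length, not on a log scale. Size factors recovered from both tables ran from 0.0405 to 4.38. The counts of the spike-ins were not used, since their order did not follow the column names. No column lacked a sample.

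A gene was called on at a normalized value of 5 or more. Shares carry Clopper-Pearson 95% intervals, which cover counting error only, and 0 cells allow up to 3 of the cells examined. Intervals come from reads without molecular identifiers. Both-on counts were set beside the sum over runs of the product of both shares. Differences are means of log2(value + 1) over cells, for genes that reached 5 reads in 25% or more of a tissue's cells, with no test because each tissue is 1 pooled sample. Cells were thinned without replacement to 500000 reads (seed 42), and 8 cells below that were left out. The script was tested on simulated data, where 200 of 200 changed genes among 4110 came out in the right direction.

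Genes named are the members, the genes of the lists (tissue and cell type markers, cell cycle, *HoxA* neighbours, paralogues, cofactors, HOX13-responsive genes) and, for each member on in at least 10% of a tissue's cells, the 3 genes with the highest rank correlation, except that some of these genes are not reported here. Members and lists were chosen with earlier results of these data known. Alternatives were on rules of 1 read, 5 reads or 5% of the cell's highest member, thinning, pseudocounts of 0.1 and 10, log2(CPM + 1), and correlations on CPM or given the genes detected. Promoter sequences are from RefSeq (GRCm38.p6), where all 5 members matched. Python 3.11.15, numpy 2.4.6, pandas 2.3.3 and scipy 1.17.1 were used.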

Additional observations from a re-analysis of the deposited data

How the results depend on the processing

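Of 83 values computed under the alternatives, 60 were labelled as unchanged and 23 as moved. A share of cells counted as unchanged inside the Clopper-Pearson interval of its main value. Differences, gene counts and correlations counted as unchanged within a 1.5-fold limit, which is no measure of their spread. No value was labelled as reversed, but shares and gene counts have no sign to reverse. Changes of sign in values close to 0, given below, were labelled as moved, so the labels do not show that signs held. Counting 1 read as on gave autopod shares of 50% for *Hoxa9*, 80.3% for *Hoxa10* and 65.8% for *Hoxa13*, zeugopod shares of 43.9% for *Hoxa9*, 91.1% for *Hoxa10*, 35.8% for *Hoxa11* and 11.4% for *Hoxa13*, and *Hoxa13* and *Hoxa11os* both on in 56.1% of autopod cells with either. At 5 reads *Hoxa9* was on in 43.4% of autopod and *Hoxa10* in 86.2% of zeugopod cells, and thinning gave 45.8% for *Hoxa9* in the autopod. Requiring also 5% of the highest of the 5 members in the cell gave 34.2% for *Hoxa13* in the autopod and 21.1% for *Hoxa13* with *Hoxa11os*. The tissue difference of *Hoxa9* was 0.10 at a pseudocount of 0.1 and -0.019 on log2(CPM + 1), that of *Hoxa11* -0.78 and of *Hoxa13* 1.57 at a pseudocount of 10, and that of *Hoxa11os* 0.42 on log2(CPM + 1). Genes higher in the zeugopod by 2 numbered 205 on log2(CPM + 1) against 132. The correlation of *Hoxa13* with *Hoxa11* in the autopod was 0.024 on CPM, and those of *Hoxa10* with *Hoxa13* and *Hoxa11os* were 0.181 and 0.188, the latter 0.173 given the genes detected. No paired analysis was possible because the tissues hold 1 pooled sample each and the numbers of the cells pair no cells, and for the same reason no replicate could be left out. Depth limits the weakest calls, since a gene at a few reads in the shallowest cells would be missed.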

Other observations

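Each cell's *HoxA* output was set beside its *HoxD* output, in cells that had been sorted on *Hoxd11*. Summed per length over *Hoxa9*, *Hoxa10*, *Hoxa11* and *Hoxa13*, the *HoxA* genes made up 15.0% of the signal of both clusters' *Hox9* to *Hox13* genes in the autopod and 44.7% in the zeugopod. The *HoxA* sum exceeded the *HoxD* sum in 10 of 76 autopod cells (13.2%, 6.49 to 22.9) and in 55 zeugopod cells (44.7%, 35.7 to 53.9). Within runs the share of the signal was 15.0% in NXT0072, 14.8% in NXT0143 autopod cells, 46.7% in NXT0142 and 39.7% in NXT0143 zeugopod cells. The rank correlation of the sums over cells was 0.302 in the autopod, 0.258 within NXT0072 and 0.197 within NXT0143, and 0.293 in the zeugopod, 0.184 within NXT0142 and 0.021 within NXT0143. Given the number of genes detected, the values were 0.171, -0.019 and 0.034 in the autopod and 0.244, 0.163 and 0.015 in the zeugopod.

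Of the summed signal of the 5 members, *Hoxa11os* held 66.3% in the autopod and 42.5% in the zeugopod, and *Hoxa10* held 20.3% and 39.99%. *Hoxa13* held 7.68% of the autopod signal and *Hoxa11* 10.8% of the zeugopod signal. The runs differed. In the autopod *Hoxa11os* held 59.1% in NXT0072 and 88.7% in NXT0143, *Hoxa10* 24.7% and 6.50%, and *Hoxa13* 8.63% and 4.72%. In the zeugopod *Hoxa11os* held 43.5% in NXT0142 and 39.6% in NXT0143, *Hoxa10* 37.7% and 47.4%, and *Hoxa11* 12.1% and 6.61%.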
